A study of Mus musculus with 13 samples.

Results

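The 8 genes described here, Scn1a, Scn3a, Scn4a, Scn7a, Scn10a, Scn2b, Scn3b and Scn4b, encode subunits of the voltage-gated sodium channel family. They were taken by symbol from the 24061 gene symbols counted in mouse heart: 5 encode alpha subunits and 3 encode beta subunits. The counts held 14 rows for alpha and beta subunits, so orders of level given below hold among the 8 members only. The members were chosen by the measured levels: Scn4a and Scn4b were lower in E3A/E3A than in WT/WT hearts. Values in that comparison are therefore a description and carry no test. The groups were E3A/E3A (5 hearts), WT/E3A (4 hearts) and WT/WT (4 hearts). All 13 hearts came from male C57BL/6N mice that were 13 weeks old and fed chow. E3A is an allele of Cpt1b, which encodes the muscle form of carnitine palmitoyltransferase 1, the enzyme that starts the entry of long-chain fatty acids into mitochondria; the study asked what follows in the heart when this enzyme responds less to its inhibitor malonyl-CoA. E3A/E3A hearts carry 2 copies of the allele, and WT/WT hearts carry none. Each library was 1 heart, sequenced as poly(A) RNA in 100-nucleotide single-end reads. Reads summed per gene cannot show the base change itself, so the level of Cpt1b does not check the genotype labels.

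Voltage-gated sodium channels open when the membrane depolarises and pass the inward sodium current that drives the upstroke of the action potential. The alpha subunit forms the pore and carries the voltage sensors. Beta subunits are small membrane proteins with an extracellular immunoglobulin-like domain; they shift the gating of the alpha subunit, affect its delivery to the membrane and can act in cell adhesion. In heart muscle the current sets how fast excitation spreads from cell to cell, and inherited changes in several subunit genes are known in human arrhythmia. Scn4a encodes the alpha subunit known mainly from skeletal muscle. Scn1a and Scn3a encode alpha subunits known mainly from brain. Scn10a is best known from sensory neurons and has been studied for its part in cardiac conduction. Scn7a encodes an atypical family member that takes part in sensing extracellular sodium. Scn2b, Scn3b and Scn4b encode beta subunits; the products of Scn2b and Scn4b bind the alpha subunit through a disulfide bond, and the intracellular tail of the Scn4b product can block the open pore.

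The labels note 4 of the 13 libraries as potential outliers: E3A/E3A replicates 1 and 2, WT/E3A replicate 1 and WT/WT replicate 1. No basis for the note is given in the sources used here. In those 4 libraries the cardiac myosin gene Myh6 took 6.59% to 9.49% of all counted reads, against 3.9% to 4.61% in the other 9. Depth was 20.1 M to 52.6 M counted reads per library. The biological coefficient of variation, the spread between hearts beyond counting error, was 28.9% over the 13 libraries and 7.85% over the 9. Every comparison is therefore given over the 13 libraries and over the 9, which leave 3 hearts per genotype. Cardiomyocyte markers were abundant in all libraries; the troponin gene Tnnt2 ranged from 6990 to 21100 CPM. CPM is the read count of a gene over the total of its library, TMM-scaled over all 13 libraries, and levels of different genes are compared as CPM per kb of annotated exon.

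The 2 members on which the genotype results turn, Scn4b and Scn4a, lie on chromosomes 9 and 11. In GENCODE annotation of GRCm38, Scn4b spans chr9:45138395-45154152 on the plus strand and Scn4a spans chr11:106318592-106353288 on the minus strand. Their promoter windows in RefSeq's GRCm38.p6 annotation, from 250 bases before the transcript start to 50 bases after it, are printed as the stretches in which motifs were searched. The Scn4b window is chr9:45138374-45138673 on the plus strand, and the Scn4a window is chr11:106349341-106349640 on the minus strand. For both genes RefSeq's start lies inside the gene as GENCODE annotates it, and the whole Scn4a window lies inside its gene. Both windows read 5′ to 3′ on the gene's own strand, and capitals mark the matched motif.
Scn4b promoter: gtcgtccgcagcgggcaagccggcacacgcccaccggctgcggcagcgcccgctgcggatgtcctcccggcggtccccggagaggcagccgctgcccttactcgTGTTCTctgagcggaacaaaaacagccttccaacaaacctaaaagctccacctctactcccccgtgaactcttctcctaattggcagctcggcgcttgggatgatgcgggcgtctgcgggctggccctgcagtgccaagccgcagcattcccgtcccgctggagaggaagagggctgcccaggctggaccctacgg
Scn4a promoter: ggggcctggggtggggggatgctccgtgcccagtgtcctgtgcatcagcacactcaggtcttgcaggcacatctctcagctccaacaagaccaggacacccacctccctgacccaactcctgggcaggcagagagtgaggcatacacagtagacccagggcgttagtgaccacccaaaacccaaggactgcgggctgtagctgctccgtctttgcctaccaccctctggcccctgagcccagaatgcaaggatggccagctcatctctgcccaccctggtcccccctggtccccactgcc
The Scn4b window held 1 match among 8 motifs searched on both strands, the glucocorticoid half-site TGTTCT. Counted from RefSeq's start it lies at position -146, a place inside the gene as GENCODE annotates it. Of 32851 RefSeq promoter windows, 19% hold that motif. The Scn4a window held none of the 8. The other motifs were the E-box CACGTG, in 7.15% of windows, the T-box AGGTGTGA, in 1.28%, the MEF2 site TAAAAATAG, in 0.493%, and the ERR site TCAAGGTCA, in 0.423%. The GC box GGGCGG was in 35.7% of windows, the TATA box TATAAA in 13.6% and the D-box TTATGTAA in 0.938%. GC content was 66.3% in the Scn4b window and 63% in the Scn4a window, against 38.3% in the window of Scn2b. Scn2b is the neighbour of Scn4b: its annotated end lies 8.32 kb before the start of Scn4b, and both genes are read from the plus strand. Among the other members, the Scn7a window held a GC box at -126 and the Scn1a window a D-box at -2; the windows of Scn2b and Scn10a held none of the 8. A match of letters is not evidence of a bound factor, and none of the libraries measured binding.

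The members differed widely in level. Over the 9 libraries, Scn4b averaged 9.1 CPM per kb (SD 2.65), Scn4a averaged 7.91 (SD 1.37) and Scn7a averaged 4.96 (SD 0.39). Scn10a averaged 0.637 CPM per kb (SD 0.0795), Scn3a 0.224 (SD 0.0337), Scn3b 0.223 (SD 0.057), Scn2b 0.131 (SD 0.0346) and Scn1a 0.00206 (SD 0.00274). Scn4a, Scn4b and Scn7a together took 91.6% to 97% of the members' CPM in a library. Scn4b was above Scn4a per kb in 12 of 13 libraries; the exception was E3A/E3A replicate 5, where the ratio was 0.811. Scn4a was above Scn7a in 13 of 13 libraries, Scn7a above Scn10a in 13 of 13, and Scn10a above Scn3a in 13 of 13. Scn3a and Scn3b did not differ beyond their spread: Scn3a was the higher in 8 of 13 libraries and their ratio ran from 0.787 to 2.05. Scn3b was above Scn2b in 9 of 13 libraries. These orders rest on the union of annotated exons, which may be longer than the transcripts made in heart.

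**Figure D1:**
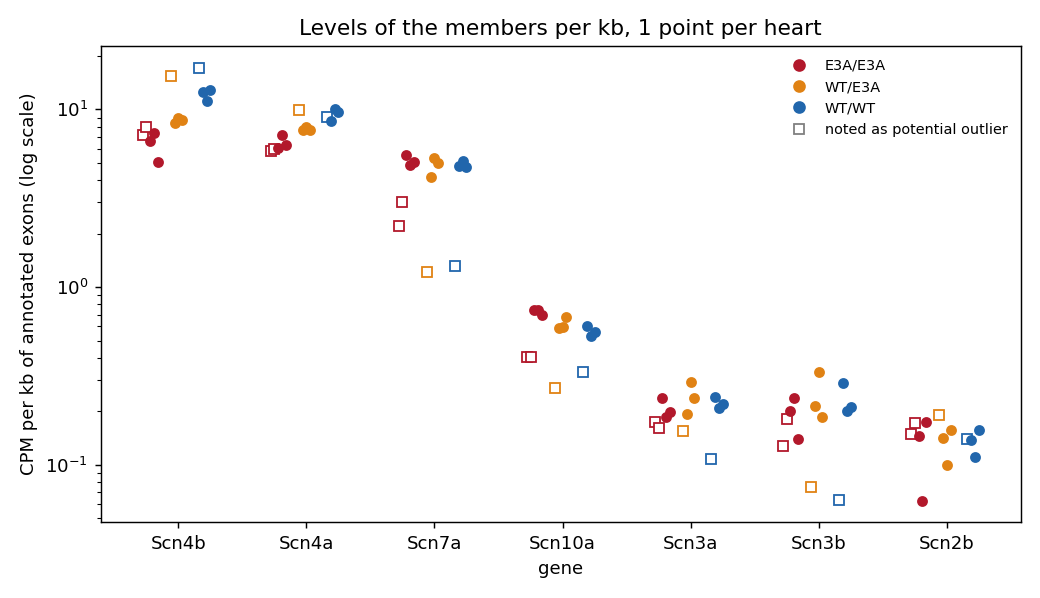
Levels of the 7 members detected in every library, in CPM per kb of annotated exon on a log scale; each point is 1 heart, colours give the genotype, and open squares are the 4 noted libraries. Scn4b, Scn4a and Scn7a lie well above the rest, and the noted libraries are low for Scn7a and Scn10a.

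Scn4b was lowest in E3A/E3A hearts and intermediate in WT/E3A hearts. Its level in E3A/E3A replicates 1 to 5 was 36, 39.9, 33.3, 36.9 and 25.3 CPM. In WT/E3A replicates 1 to 4 it was 76.5, 41.9, 44.5 and 43.6 CPM, and in WT/WT replicates 1 to 4 it was 85.8, 62.7, 55.5 and 64.4 CPM. All 5 E3A/E3A hearts were below all 4 WT/E3A hearts and all 4 WT/WT hearts. The WT/E3A and WT/WT ranges overlapped over 13 libraries, through the noted WT/E3A replicate 1, and did not overlap over the 9. The mean was 34.3 CPM in E3A/E3A (SD 5.53, n = 5), 51.6 CPM in WT/E3A (SD 16.6, n = 4) and 67.1 CPM in WT/WT (SD 13.1, n = 4). Without the noted libraries the mean was 31.9 CPM in E3A/E3A (SD 5.94, n = 3), 43.3 CPM in WT/E3A (SD 1.3, n = 3) and 60.9 CPM in WT/WT (SD 4.73, n = 3).

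For E3A/E3A against WT/WT, the comparison that chose the family, the log2 fold change of Scn4b was -0.97 (SE 0.20) over 13 libraries and -0.93 (SE 0.12) over 9. The level in E3A/E3A hearts was thus 0.511 times that in WT/WT hearts over 13 libraries and 0.524 times over 9. Between WT/E3A and WT/WT hearts the log2 fold change was -0.37 (SE 0.21) over 13 libraries, where the adjusted p was 1, and -0.49 (SE 0.11) over 9, where it was 0.539 in edgeR's quasi-likelihood test. Between E3A/E3A and WT/E3A hearts it was -0.60 (SE 0.20) over 13 libraries, with an adjusted p of 1, and -0.44 (SE 0.12) over 9, with an adjusted p of 0.562 in the same edgeR test. Neither comparison with WT/E3A hearts therefore passed the threshold of 0.05 in edgeR. DESeq2 called Scn4b in both over the 9 libraries, with DESeq2 adjusted p = 0.00779 between WT/E3A and WT/WT hearts and 0.0247 between E3A/E3A and WT/E3A hearts. In edgeR, leaving out E3A/E3A replicate 5 also brought WT/E3A against WT/WT past the threshold, with an adjusted p of 0.00984; across the other 8 such fits this p was above the threshold. Over all alternatives run, the adjusted p of Scn4b over 9 libraries ranged from 0.00779 to 1 between WT/E3A and WT/WT hearts and from 0.0247 to 0.998 between E3A/E3A and WT/E3A hearts. The comparisons with WT/E3A share their hearts with the comparison that chose the family, so they are not independent of it.

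Scn4a followed the same order of genotypes over a narrower range. E3A/E3A replicates 1 to 5 had 40.9, 42, 42.7, 50.4 and 44.1 CPM. WT/E3A replicates 1 to 4 had 70.2, 53.9, 56.2 and 54 CPM, and WT/WT replicates 1 to 4 had 63.6, 61, 70.6 and 68.4 CPM. Every E3A/E3A heart was below every heart of the other genotypes, and WT/E3A overlapped WT/WT through its noted replicate 1 alone. The mean was 44 CPM in E3A/E3A (SD 3.74, n = 5), 58.6 CPM in WT/E3A (SD 7.81, n = 4) and 65.9 CPM in WT/WT (SD 4.38, n = 4). Over the 9 libraries it was 45.7 CPM (SD 4.1) in E3A/E3A, 54.7 CPM (SD 1.3) in WT/E3A and 66.6 CPM (SD 5.04) in WT/WT, with 3 hearts each. The log2 fold change for E3A/E3A against WT/WT was -0.58 (SE 0.11) over 13 libraries and -0.54 (SE 0.07) over 9, a level 0.668 and 0.686 times that of WT/WT hearts. For WT/E3A against WT/WT it was -0.16 (SE 0.11) over 13 libraries and -0.28 (SE 0.07) over 9, with edgeR adjusted p-values of 1 and 0.539. For E3A/E3A against WT/E3A it was -0.42 (SE 0.11) and -0.26 (SE 0.07), with edgeR adjusted p-values of 1 and 0.456.

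**Figure D2:**
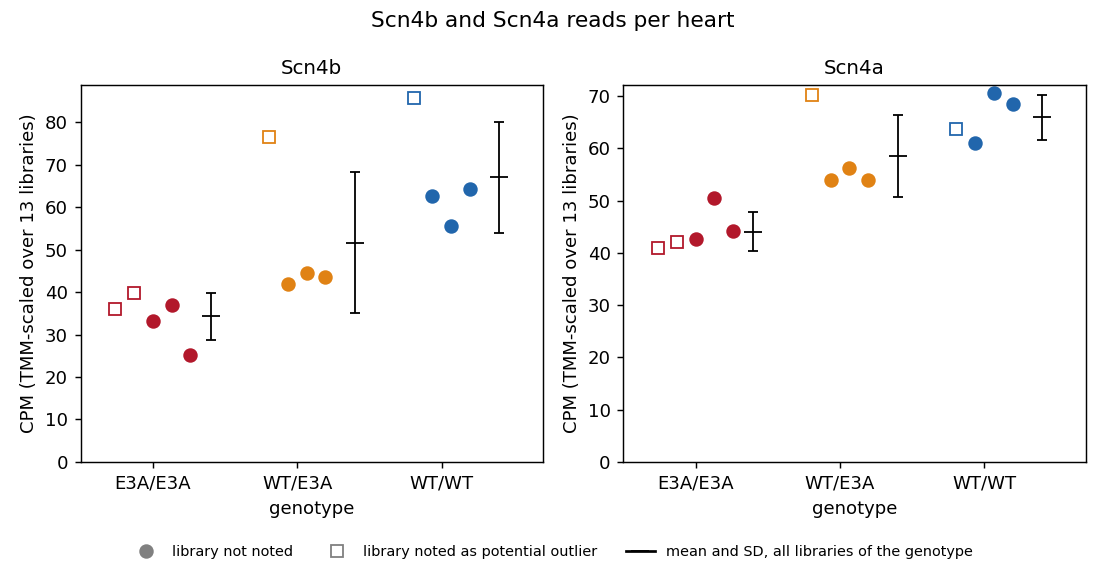
Scn4b and Scn4a in CPM, TMM-scaled over 13 libraries, by genotype; each point is 1 heart, open squares are the 4 noted libraries, and bars give the mean and SD over all libraries of a genotype. The E3A/E3A hearts lie at 25.3 to 39.9 CPM for Scn4b and at 40.9 to 50.4 CPM for Scn4a, below every heart of the other genotypes.

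The number of Scn4b reads per Scn4a read, which does not depend on the scaling between libraries, averaged 0.783 in E3A/E3A (SD 0.144, n = 5), 0.866 in WT/E3A (SD 0.149, n = 4) and 1.03 in WT/WT (SD 0.237, n = 4). It was 0.879, 0.949, 0.78, 0.733 and 0.574 in E3A/E3A replicates 1 to 5. It was 1.09, 0.778, 0.791 and 0.807 in WT/E3A replicates 1 to 4, and 1.35, 1.03, 0.786 and 0.942 in WT/WT replicates 1 to 4. The ratio overlapped between all 3 genotypes, and in each genotype the noted libraries had the highest ratios.

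Scn7a overlapped between genotypes and was low in the noted libraries. Its level was 16.2 and 22.2 CPM in the noted E3A/E3A replicates 1 and 2, and 40.9, 35.7 and 37 CPM in replicates 3 to 5. It was 8.92 CPM in the noted WT/E3A replicate 1, and 30.8, 39.1 and 36.8 CPM in replicates 2 to 4. WT/WT replicate 1, also noted, had 9.68 CPM, and replicates 2 to 4 had 35.2, 37.5 and 34.7 CPM. The genotypes overlapped in every comparison, with log2 fold changes of 0.05 (SE 0.46) over 13 libraries and 0.08 (SE 0.08) over 9 for E3A/E3A against WT/WT. Over 9 libraries, WT/E3A against WT/WT gave -0.00, with an interval of 2 SE on each side of -0.17 to 0.16, and an edgeR adjusted p of 0.998. E3A/E3A against WT/E3A gave 0.09, with an interval of -0.08 to 0.25, and an edgeR adjusted p of 0.86.

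Scn10a had 3.2, 3.21, 5.91, 5.91 and 5.56 CPM in E3A/E3A replicates 1 to 5, 2.15, 4.68, 4.76 and 5.4 CPM in WT/E3A replicates 1 to 4, and 2.63, 4.78, 4.2 and 4.47 CPM in WT/WT replicates 1 to 4. The noted libraries were the lowest of each genotype. Over 13 libraries the genotypes overlapped, and over 9 the E3A/E3A hearts lay above all WT/E3A and WT/WT hearts. In either direction, 14% of tested genes had no overlap between E3A/E3A and WT/WT hearts over the 9 libraries, and 11.2% between E3A/E3A and WT/E3A hearts. The 9-library mean was 5.79 CPM in E3A/E3A (SD 0.204, n = 3), 4.95 CPM in WT/E3A (SD 0.395, n = 3) and 4.48 CPM in WT/WT (SD 0.29, n = 3). The log2 fold change for E3A/E3A against WT/WT was 0.24 (SE 0.30) over 13 libraries and 0.36 (SE 0.11) over 9, and neither fit called it. Over 9 libraries, E3A/E3A against WT/E3A gave 0.23 (SE 0.11) and an edgeR adjusted p of 0.727, and WT/E3A against WT/WT gave 0.14 (SE 0.11) and 0.857.

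Markers of neurons and Schwann cells, cell types in which Scn10a and Scn7a are well known, were detected. Their summed levels were above that of Scn10a alone, which ranged from 2.15 to 5.91 CPM. Summed neuron markers ranged from 16.6 to 34 CPM in E3A/E3A, 15.5 to 36.2 CPM in WT/E3A and 13.7 to 36.5 CPM in WT/WT hearts, over 10 listed genes. Among the listed neuron markers, Th and Snap25 had at most 0.0403 and 0.0289 CPM in any library. Uchl1, Stmn2 and Dbh, also on the list, were detected: by genotype Uchl1 averaged 9.71 to 10.7 CPM, Stmn2 5.92 to 6.73 CPM and Dbh 2.83 to 3.82 CPM over 13 libraries. Summed Schwann cell markers ranged from 23.1 to 29.9 CPM in E3A/E3A, 20.6 to 32.1 CPM in WT/E3A and 20.5 to 28.8 CPM in WT/WT hearts. In the noted libraries, where Scn7a and Scn10a were lower, 4 of 5 tested neuron markers were called higher, and of 8 tested Schwann cell markers 6 were called higher and 1 lower. Over all tested genes in that comparison, 37% were called higher and 38.2% lower. In these libraries of heart tissue, fewer cells of a type and less RNA per cell cannot be told apart.

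The remaining alpha subunits among the members were scarce. Scn3a ranged from 2.01 to 2.97 CPM (median 2.31) in E3A/E3A, 1.91 to 3.66 CPM (median 2.68) in WT/E3A and 1.34 to 3 CPM (median 2.67) in WT/WT hearts, on 45 to 131 reads per library. Its genotypes overlapped, with log2 fold changes for E3A/E3A against WT/WT of -0.02 (SE 0.25) over 13 libraries and -0.11 (SE 0.17) over 9. Scn1a had 8 reads in all, with at most 2 in a library and reads in 5 of the 13. In the 8 libraries with no read, a count of 0 allows up to 3 reads, or 0.0687 to 0.141 CPM, for counting error only. Scn1a was therefore not tested, and no difference between genotypes was detectable at this depth.

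The 2 other beta subunits among the members were also scarce and overlapped between genotypes. Scn3b ranged from 0.692 to 1.29 CPM (median 0.98) in E3A/E3A, 0.41 to 1.82 CPM (median 1.09) in WT/E3A and 0.347 to 1.58 CPM (median 1.12) in WT/WT hearts, on 12 to 69 reads. Scn2b, the neighbour of Scn4b, ranged from 0.292 to 0.805 CPM (median 0.692) in E3A/E3A, 0.462 to 0.888 CPM (median 0.694) in WT/E3A and 0.51 to 0.733 CPM (median 0.643) in WT/WT hearts, on 10 to 32 reads. For E3A/E3A against WT/WT, Scn3b gave -0.11 (SE 0.43) over 13 libraries and -0.27 (SE 0.26) over 9, and Scn2b gave 0.02 (SE 0.28) and -0.14 (SE 0.34). The intervals are wide: for Scn2b in WT/E3A against WT/WT over 9 libraries, 2 SE on each side ran from -0.77 to 0.62, and the value of Scn4b in that fit, -0.49, lay inside it.

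**Figure D3:**
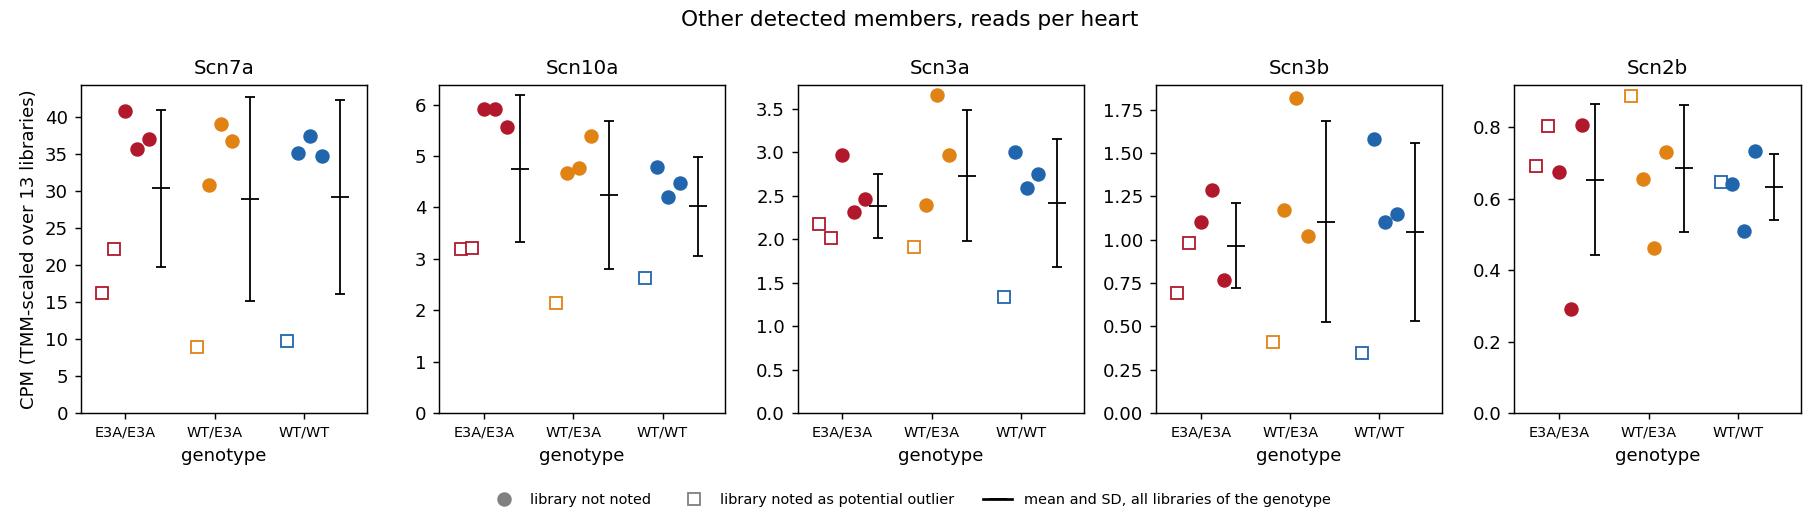
Scn7a, Scn10a, Scn3a, Scn3b and Scn2b in CPM, TMM-scaled over 13 libraries, by genotype; each point is 1 heart, open squares are the 4 noted libraries, and bars give the mean and SD over all libraries of a genotype. The noted libraries are the lowest of each genotype for Scn7a, Scn10a and Scn3a, and for Scn3b in WT/E3A and WT/WT; the genotypes overlap, apart from Scn10a, whose 3 E3A/E3A hearts without the note lie above the rest.

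Of the 8 members, 7 passed the filter on low counts in both fits. In E3A/E3A against WT/WT, 0 of the 7 were called over 13 libraries, where 0.00695% of 14387 tested genes were called, and 2 of the 7, Scn4a and Scn4b, were called lower over 9 libraries, where 0.271% of 14373 genes were called and 0.216% were called lower. Leaving out E3A/E3A replicate 3, WT/E3A replicate 3 or WT/WT replicate 4 left 1 of the 7 called over the 9 libraries, Scn4a. That comparison chose the members, so nothing is read from these counts. In WT/E3A against WT/WT, edgeR called 0 of the 7 in either fit; over all genes it called 0% over 13 libraries and 0.0209% over 9, and 117 and 914 genes had an unadjusted p under 0.05. In E3A/E3A against WT/E3A, edgeR likewise called 0 of the 7 in either fit; over all genes it called 0% and 0.0417%, and 208 and 993 genes had an unadjusted p under 0.05. DESeq2 called 0 of the 7 in both comparisons over 13 libraries and only Scn4b in both over 9. The other members in these 2 comparisons had edgeR adjusted p-values from 0.727 to 1. Over the 9 libraries, ranges of the lower group did not overlap those of the higher for both Scn4a and Scn4b in each comparison, as for 6.69% of tested genes in E3A/E3A against WT/WT, 6.32% in WT/E3A against WT/WT, and 5.25% with E3A/E3A hearts below WT/E3A hearts. Scn4a and Scn4b were the 2 members whose 3 genotype ranges stood apart in the order E3A/E3A, WT/E3A, WT/WT from low to high, a pattern shown by 0.264% of tested genes. Over 13 libraries, E3A/E3A ranges lay below WT/WT ranges without overlap for both genes, as for 0.535% of tested genes, and below WT/E3A ranges for both, as for 0.473%. The order of the 3 genotypes and the non-overlap of E3A/E3A with WT/WT hearts contain the difference that chose the members. Nothing is read from the shares given for them either, and the shares with WT/E3A use the same hearts.

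**Figure D4:**
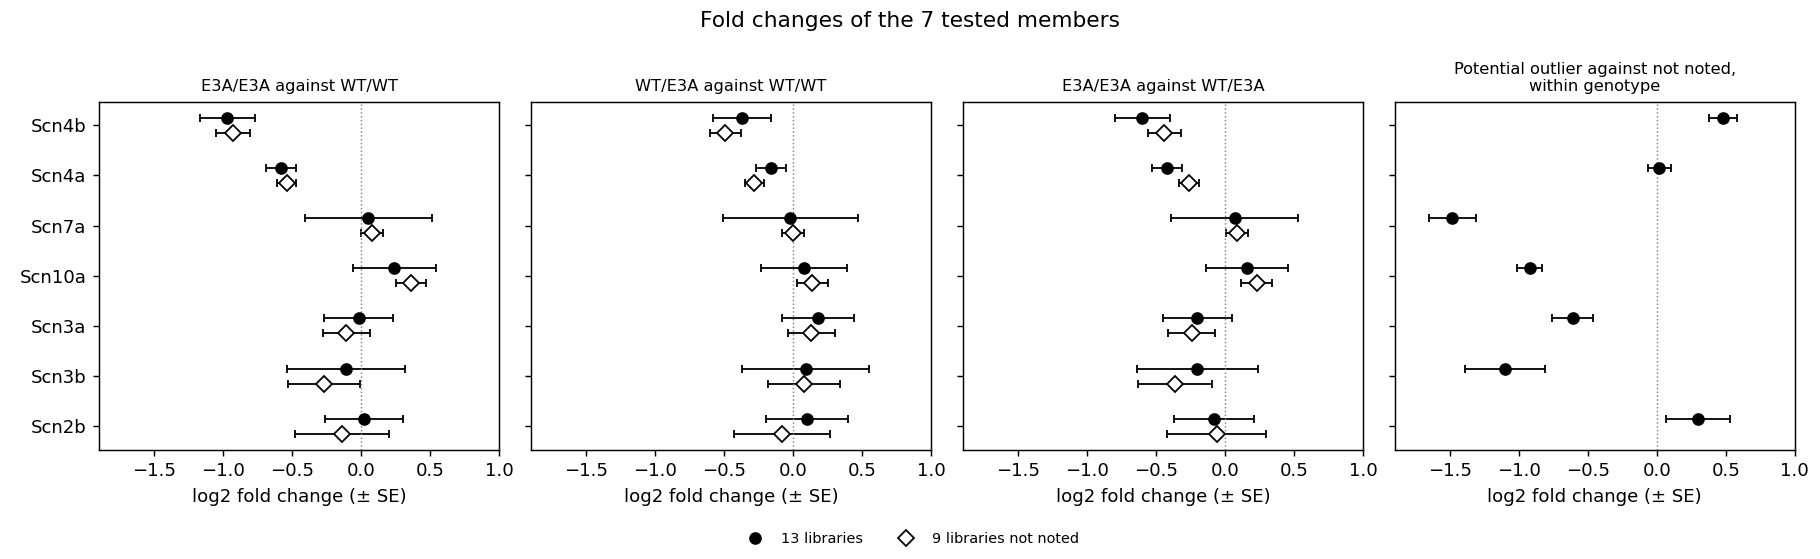
Log2 fold changes with SE of the 7 tested members in the 3 comparisons of genotypes, from left to right as titled, and at the right in noted libraries against the others within genotype; filled circles are fits over 13 libraries and open diamonds fits over the 9 not noted. Scn4b and Scn4a lie below 0 in the 3 genotype comparisons, and Scn7a, Scn10a, Scn3b and Scn3a lie below 0 in the noted libraries.

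Set against the other libraries within genotype, the 4 noted libraries had lower Scn7a, by a log2 fold change of -1.48 (SE 0.17, edgeR adjusted p = 2.4e-06), and lower Scn10a, by -0.92 (SE 0.09, adjusted p = 9.91e-07). Scn3b and Scn3a were also lower, by -1.10 (SE 0.29, adjusted p = 0.00357) and -0.61 (SE 0.15, adjusted p = 0.00228). Scn4b was higher by 0.48 (SE 0.10, adjusted p = 0.000715). Scn2b and Scn4a did not pass the test, at 0.30 (SE 0.23, adjusted p = 0.254) and 0.02 (SE 0.08, adjusted p = 0.82). With 2 SE on each side, the difference for Scn4a ran from -0.14 to 0.19. For Scn4a the noted libraries averaged 41.5 CPM in E3A/E3A (n = 2, against 45.7 CPM without the note). They were at 70.2 CPM in WT/E3A (against 54.7 CPM) and at 63.6 CPM in WT/WT (against 66.6 CPM). The count of 5 called members of 7 stood beside 75.2% of all 14387 tested genes, 37% higher and 38.2% lower, so it is near the background. For Scn4b the noted libraries averaged 37.9 CPM in E3A/E3A (n = 2, against 31.9 CPM without the note), and were at 76.5 CPM in WT/E3A (against 43.3 CPM) and at 85.8 CPM in WT/WT (against 60.9 CPM). Whether the difference of Scn4a or of Scn4b varied between genotypes was not tested.

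The titles of the samples begin with C2, C3, C4 or C6, and what these codes stand for is not given in the sources used here. C2 holds only noted libraries, so differences by note and by that prefix cannot be told apart in them. The noted WT/E3A replicate 1 is in C4. Within C2, where the E3A/E3A replicates 1 and 2 and WT/WT replicate 1 are all noted libraries, Scn4b averaged 37.9 CPM in E3A/E3A and was 85.8 CPM in WT/WT, a log2 ratio of -1.18. Within C3, none of whose libraries is noted, it averaged 29.3 CPM in 2 E3A/E3A hearts, with 41.9 CPM in the WT/E3A heart and 62.7 CPM in the WT/WT heart; the log2 ratios to these were -0.52 and -1.10. Within C4, over libraries not noted, it was 36.9 CPM in the E3A/E3A heart and averaged 44 CPM in 2 WT/E3A hearts, a log2 ratio of -0.25. Scn4a had the same signs, with log2 ratios for E3A/E3A against WT/WT of -0.62 within C2 and -0.49 within C3; its ratios of E3A/E3A to WT/E3A hearts were -0.31 within C3 and -0.13 within C4. Both genes were lower in E3A/E3A within every prefix that allowed the comparison, on 1 to 3 hearts a side. These signs were fixed beforehand, because every E3A/E3A heart was below every heart of the other genotypes for both genes. Signs within a prefix are therefore not a separate check. C6 holds WT/WT libraries only. With the prefix as a block, edgeR called 0 of the 7 members in E3A/E3A against WT/WT over 9 libraries, where 1 WT/WT heart then carries the comparison.

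Genes for proteins that bind, anchor or modify cardiac sodium channels were called in no genotype comparison. Of 24 such genes, all tested, edgeR called 0 in each of the 3 comparisons and both fits, and their median log2 fold change lay between -0.04 and 0.01, against -0.02 to 0.00 over all tested genes. The lowest p-values over 13 libraries belonged to Sgk1, a kinase that raises channel activity, Fgf11, an intracellular fibroblast growth factor homologous factor, and Slmap, a membrane protein of the sarcolemma. In E3A/E3A against WT/WT, Sgk1 had a log2 fold change of 0.30 (SE 0.17) and Fgf11 of 0.16 (SE 0.13). In WT/E3A against WT/WT, Sgk1 had a log2 fold change of 0.34 (SE 0.18) and Slmap of 0.14 (SE 0.11). In E3A/E3A against WT/E3A, Slmap had a log2 fold change of -0.13 (SE 0.10) and Fgf11 of 0.13 (SE 0.13). All of these edgeR adjusted p-values were 1. Over 9 libraries the lowest included that of Fgf11 (0.21, SE 0.10) in E3A/E3A against WT/WT. Ywhah (0.17, SE 0.07) and the ubiquitin ligase gene Nedd4l (-0.14, SE 0.06) led in WT/E3A against WT/WT. Nedd4l (0.14, SE 0.06) and Nedd4 (-0.08, SE 0.04) led in E3A/E3A against WT/E3A. These log2 fold changes had edgeR adjusted p-values of 0.702 to 0.767. In the noted libraries, 5 of the 24 were called higher and 15 lower, with a median of -0.33, beside 37% of all tested genes called higher and 38.2% lower.

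Genes of sodium and related ion transport gave 0 called of 13 in each genotype comparison in edgeR, with medians from -0.05 to 0.05. Among the lowest p-values over 13 libraries were those of the sodium pump subunit gene Atp1b1, Slc5a1 (a sodium-glucose cotransporter) and Slc8b1 (the mitochondrial sodium-calcium exchanger). Between E3A/E3A and WT/WT hearts, Atp1b1 had a log2 fold change of -0.11 (SE 0.15) and Slc5a1 of 0.13 (SE 0.22). In WT/E3A against WT/WT, Slc8b1 had a log2 fold change of -0.15 (SE 0.23). Between E3A/E3A and WT/E3A hearts, that of Atp1b1 was -0.16 (SE 0.15), and each of these edgeR adjusted p-values was 1. Over 9 libraries, the genes with the lowest p-values included Atp1b2 (0.09, SE 0.06), another sodium pump subunit gene, in E3A/E3A against WT/WT and Slc8b1 (-0.13, SE 0.08) in WT/E3A against WT/WT. Slc8b1 (0.18, SE 0.08) and Atp1b1 (-0.10, SE 0.04) led in E3A/E3A against WT/E3A. The lowest of those edgeR adjusted p-values was 0.717. In the noted libraries, 3 of the 13 were called higher and 8 lower, beside the same 37% and 38.2% of all tested genes.

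Cardiac transcription factors gave 0 called of 17 in each genotype comparison in edgeR, with medians from -0.04 to 0.05. Tbx3, a repressor active in the conduction system, had a log2 fold change of 0.16 (SE 0.13) in E3A/E3A against WT/WT over 13 libraries and of 0.27 (SE 0.09, edgeR adjusted p = 0.352) over 9. Nkx2-5, a core factor of heart muscle, followed it over 13 libraries with -0.27 (SE 0.33), and Tbx2 over 9 with 0.19 (SE 0.09). Gata6 (0.32, SE 0.22) and Irx4 (-0.19, SE 0.15) led in WT/E3A against WT/WT over 13 libraries, and Gata6 (0.32, SE 0.15) and Tbx3 (0.17, SE 0.09) over 9. Between E3A/E3A and WT/E3A hearts, Irx4 (0.23, SE 0.14) and Mef2d (-0.19, SE 0.14) led over 13 libraries, and Gata4 (0.11, SE 0.05) and Tbx18 (0.22, SE 0.11) over 9. In the noted libraries, 5 of the 17 were called higher and 9 lower, beside the same 37% and 38.2% of all tested genes.

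Markers of skeletal muscle, the conduction system and the atria were measured in the same libraries. The fast skeletal myosin genes Myh1, Myh2 and Myh4 had at most 0.139, 0.208 and 0.0292 CPM in any library, while Scn4a had at least 40.9 CPM. Of 12 skeletal muscle markers 6 were tested and 0 were called by genotype in edgeR; their sum was 120 to 210 CPM in E3A/E3A, 142 to 181 CPM in WT/E3A and 98.7 to 269 CPM in WT/WT hearts, mostly from Acta1. In the noted libraries 6 of the 6 were called higher, beside 37% of all tested genes. Summed conduction system markers ranged from 144 to 185 CPM in E3A/E3A, 137 to 181 CPM in WT/E3A and 135 to 177 CPM in WT/WT hearts. For E3A/E3A against WT/WT, 9 of 10 had positive log2 fold changes in either fit and 0 were called. Summed atrial markers ranged from 1060 to 1620 CPM in E3A/E3A, 960 to 1750 CPM in WT/E3A and 914 to 1570 CPM in WT/WT hearts. That sum came mostly from Pam, which averaged 768 to 822 CPM by genotype over 13 libraries, while Myl7 averaged 25.2 to 37.2 CPM. Over 9 libraries all 10 atrial markers had positive log2 fold changes in E3A/E3A against WT/WT, with a median of 0.61, and 0 were called. Some of these were imprecise, such as Myl7 at 0.84 (SE 0.94) and Myl4 at 0.70 (SE 0.86), while Nppa was at 0.69 (SE 0.27). The atrial sums of E3A/E3A replicates 3 to 5 were 1160, 1060 and 1500 CPM, against 914 to 1090 CPM in WT/WT, so replicate 5 stood highest. Whether atrial or conduction content bears on the levels of Scn4a and Scn4b was not tested.

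The genes most like Scn4a and Scn4b across hearts were ranked by Pearson correlation of log2 CPM over the 9 libraries not noted. All genes were measured in the same hearts, which differ in genotype and depth, so any gene ordered by genotype ranks high. For Scn4a the highest were Acsf2 (r = 0.979), Vwa8 (0.959), Hadha (0.954), Slc25a32 (0.952) and 4632428C04Rik (0.951). Acsf2 encodes an acyl-CoA synthetase family member and Hadha the alpha subunit of the mitochondrial trifunctional protein of fatty acid oxidation. Hadha averaged 1660 CPM in E3A/E3A (SD 38.8), 1870 CPM in WT/E3A (SD 53.6) and 2040 CPM in WT/WT (SD 72.2), with 3 hearts each. The lowest for Scn4a were Ankk1 (-0.965), Tmem198b (-0.958) and Pi16 (-0.957). For Scn4b the highest were Fah (0.983), 4632428C04Rik (0.976), Ttc7 (0.970), Myo5c (0.966) and Clec18a (0.956). Fah, which encodes the last enzyme of tyrosine breakdown, averaged 13.2 CPM in E3A/E3A (SD 1.54), 16.5 CPM in WT/E3A (SD 0.676) and 20.7 CPM in WT/WT (SD 0.986). The lowest for Scn4b were Chst1 (-0.961), Gpr153 (-0.954) and Gm4980 (-0.950). The correlation between Scn4a and Scn4b was 0.913, which placed Scn4b 34th among genes like Scn4a and Scn4a 29th among genes like Scn4b.

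The other members lie in 2 groups on chromosomes 2 and 9. On the minus strand of chromosome 2 lie Scn3a (chr2:65457118-65567627), Scn1a (chr2:66270778-66440840) and Scn7a (chr2:66673425-66784914); 703 kb separate Scn3a from Scn1a and 233 kb separate Scn1a from Scn7a. Chromosome 9 holds Scn3b (chr9:40269217-40291618) and Scn2b (chr9:45117782-45130070) on the plus strand and Scn10a (chr9:119608456-119719322) on the minus strand. Annotated exons of the 8 members overlap no exon of another gene. Of all 50-base stretches in their transcripts, 6.49% in Scn3a, 4.03% in Scn1a, 1.66% in Scn10a and 0.072% in Scn4a also occur in transcripts of other genes of the family; in Scn7a, Scn2b, Scn3b and Scn4b none do. How reads that match several places were counted is not given in the sources used here. Low levels of Scn3a and Scn1a are the least certain on this account.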

How the data were processed

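Poly(A) RNA of 13 hearts, 1 library each, was analysed from the authors' deposited counts of reads per gene symbol. The submitters' processing notes name STAR 2.4.0, featureCounts 1.4.4 and the mouse builds mm10 and GRCm38; strand setting and the treatment of multi-mapping reads are not given in the sources used here. Groups and the potential outlier note came from the labels.

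Counts were fitted with edgeR 4.0.16 (R 4.3.3), after filterByExpr and TMM scaling, by the robust quasi-likelihood F test with the 3 genotypes in 1 model, over 13 libraries and over the 9 not noted. Benjamini-Hochberg adjustment ran over every tested gene; calls are adjusted p-values under 0.05. The note was tested in a fit of genotype plus note. Fold changes are of the group named before "against" over the group named after it. SE is the log2 fold change divided by the root of F. Log2 CPM used a prior count of 2. Exon lengths came from GENCODE M21. Scripts were tested on simulated data. Alternatives were DESeq2 1.42.0, its size factors, no filter, limma 3.58.1 voom with quality weights, the title prefix as a block, the note as a covariate, and leaving out each library.

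The members and gene lists were chosen with earlier results of these data known. Genes named are the members, the called genes of a list or else the 2 with the lowest p, and the genes most and least like Scn4a and Scn4b; where many list genes were called, with the note, counts are given. Other rows of the sodium channel family and some list genes are not reported here by name. The labels give no animal numbers; each library is taken as 1 heart, and p-values measure only the spread between these libraries. Without molecular identifiers reads are not independent molecules, so floors cover counting error only.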

Additional observations from a re-analysis of the deposited data

Results flagged for a closer look

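The 7 tested members in 3 genotypes gave 21 groups of hearts. In 4 of them the highest or lowest heart stood far from the others of its genotype by Dixon's criterion. Chance gives about 1 in 20 for independent groups. These groups share hearts, Scn4a and Scn4b vary together (r = 0.913 over 9 libraries), and noted libraries recur. The chance rate is therefore no test of the count. WT/E3A replicate 1, a noted library, had 76.5 CPM of Scn4b, with the other WT/E3A hearts at 41.9 to 44.5 CPM. The same heart had 70.2 CPM of Scn4a, with the others at 53.9 to 56.2 CPM. WT/WT replicate 1, also noted, had 9.68 CPM of Scn7a, with the others at 34.7 to 37.5 CPM. E3A/E3A replicate 4, which is not noted, had 0.292 CPM of Scn2b, on 10 reads, with the others at 0.673 to 0.805 CPM. Scn1a is too sparse for this criterion: WT/E3A replicate 3 had 0.0577 CPM, on 2 reads, and with the other WT/E3A hearts at 0 any read would stand apart.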

How the results depend on the processing

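E3A/E3A against WT/WT chose the members, so its counts under each alternative describe the fits and nothing is read from them. The number of the 7 tested members called in E3A/E3A against WT/WT over 13 libraries was 0 in edgeR and 2, Scn4a and Scn4b, with DESeq2, with voom quality weights and with the note as a covariate. Over 9 libraries it was 2 and became 0 with the title prefix as a block; leaving out 1 library gave 1 to 2, and Scn4b was not called without E3A/E3A replicate 3, WT/E3A replicate 3 or WT/WT replicate 4. WT/E3A against WT/WT over 9 libraries gave 0 in edgeR, 1 (Scn4b) with DESeq2, and 0 to 1 leaving out 1 library. E3A/E3A against WT/E3A over 9 libraries gave 0, and 1 (Scn4b) with DESeq2. The other counts of called members did not move when 1 library was left out, and the note comparison gave 5 each time. Scn4a and Scn4b kept a negative sign in every genotype comparison under every alternative run. Signs reversed in other members. For WT/E3A against WT/WT over 13 libraries, Scn2b gave -0.09 with voom, and with the prefix block Scn7a gave 0.12, Scn10a -0.12 and Scn3b -0.05. Over 9 libraries with that block, Scn3a gave -0.04, Scn10a -0.00, Scn2b 0.40 and Scn3b -0.48. Scn3b gave 0.13 in E3A/E3A against WT/E3A over 13 libraries with the block. Leaving out 1 library, WT/E3A against WT/WT over 13 libraries ran from -0.31 to 0.28 for Scn7a, -0.08 to 0.30 for Scn10a, -0.06 to 0.27 for Scn2b, -0.02 to 0.32 for Scn3a and -0.28 to 0.38 for Scn3b. Over 9 it ran from -0.08 to 0.09 for Scn7a, -0.22 to 0.12 for Scn2b, -0.05 to 0.26 for Scn3a and -0.24 to 0.29 for Scn3b. E3A/E3A against WT/E3A over 13 ran from -0.23 to 0.25 for Scn7a, -0.06 to 0.30 for Scn10a, -0.24 to 0.11 for Scn2b and -0.48 to 0.17 for Scn3b, and over 9 from -0.30 to 0.27 for Scn2b and -0.00 to 0.16 for Scn7a. For E3A/E3A against WT/WT over 13 libraries the values that crossed 0 ran from -0.24 to 0.21 for Scn7a, -0.22 to 0.11 for Scn3a, -0.41 to 0.18 for Scn3b and -0.06 to 0.21 for Scn2b, and over 9 from -0.38 to 0.19 for Scn2b. In that comparison Scn2b also gave -0.50 with voom, and Scn3a, Scn3b and Scn2b changed sign with the note as a covariate (0.10, 0.11 and -0.04) over 13 libraries. With the prefix block there, Scn3a gave 0.16 and Scn3b 0.08, and over 9 Scn2b gave 0.04. With the note, Scn4a ran from -0.12 to 0.06. The cause of these shifts was not tested. Mean levels with DESeq2 size factors all moved by less than 1 SD. No paired analysis was possible because the labels give no replicate numbers; those used here follow accession order and only name libraries. Scn1a, Scn2b and Scn3b are limited by depth.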
